A study of Mus musculus with 5 samples.

Results

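Whether Neuro2A lines that carry a vector for gene knockdown differ from lines that carry none was compared over 5 arrays, 1 per line. Neuro2A is a mouse neuroblastoma cell line. The 3 lines with a knockdown vector were EGFP KD, transfected with a vector against EGFP, and KDM7 KD1 and KDM7 KD2, transfected with different vectors against KDM7. The 2 lines without one were the parental cells and cells transfected with an empty vector. The rule took all 5 lines of the series and every non-control probe set whose mean log2 signal over the lines was at or above the median, which kept 22519 of 45037 probe sets, a mean signal of at least 40.5. The design text calls the KDM7 lines stable, and the sources used here do not give the vector type, whether a line is 1 clone or a pool, or whether any line contains EGFP, a jellyfish-derived reporter that is not a mouse gene.

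A knockdown vector usually directs the cell to make a small RNA that a complex around an Argonaute protein uses to find and silence matching messages. The small RNA can compete with the cell's microRNAs for the same enzymes, can pair with messages it was not made for, and, as double-stranded RNA, can be sensed by the innate immune system, which turns on interferon-responsive genes. A vector against a reporter that the cell does not need is therefore a common control in such work. KDM7 is a family of histone demethylases, here Kdm7a and its paralogs Phf2 and Phf8.

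The arrays had been scaled alike, with a 2% trimmed mean signal of 500.003 to 500.004. The parental line stood apart from all others, with a standard deviation of log2 differences of 0.586 to 0.618 against the other 4 lines. The empty vector line had 0.452 to 0.501 against the lines with a knockdown vector, and these had 0.410 to 0.484 among themselves. Empty vector and KDM7 KD1 thus lay closer to each other (0.452) than EGFP KD to either KDM7 line (0.467 and 0.484), so by this measure the 5 lines did not separate by knockdown vector. Marker lists were summed over all members with a probe set, kept or not. The 14 neuroblast markers, 11 of them kept, summed to signals of 63255 to 68082 without and 64520 to 70857 with a knockdown vector. The 9 Schwann and glial markers summed to 5388 to 5527 and 3194 to 5151, mostly Pmp22, and 3 were kept, Sox10 not among them. The sums were 223 to 240.8 and 207 to 280 for 10 fibroblast markers (2 kept), 218 to 286 and 255 to 305 for 9 blood markers (1 kept), and 213 to 338 and 354 to 539 for 10 epithelial and endothelial markers (2 kept). The part of other cell types in the results was not tested.

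No probe set passed the test between lines with and without a knockdown vector. limma, with Benjamini-Hochberg adjustment over all 22519 probe sets at 0.05, called 0 (0%), with a smallest adjusted p of 0.539. At an unadjusted p under 0.05 the same fit gave 1761 probe sets, 1242 higher (5.52%) and 519 lower (2.3%) with a knockdown vector. A trend in the variance prior gave 0 calls as well (smallest adjusted p 0.590 in limma), as did trend and robust together (0.591). Since nothing in the sources used here tells whether the lines grew in separate cultures, a p-value covers only how these arrays spread, and 3 arrays against 2 limit the precision of every value. No gene is therefore said here to have risen or fallen, and the values that follow are descriptions. Log2 differences are with minus without a knockdown vector, with the standard error from limma after ±.

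By position alone, all 3 lines with a knockdown vector lay above both others for 3571 probe sets (15.9%) and below both for 2182 (9.69%). If all orders of the lines were equally likely, 10% of probe sets would lie above both others and 10% below. These counts by themselves therefore do not show that the groups separate. The split into above and below depended on how the arrays were scaled. It was 3030 above and 2518 below after quantile normalization, 2998 and 2698 after cyclic loess, and 1236 and 6049 after centring on the median of all probe sets, which moves the lines with a knockdown vector down by 0.18 on the log2 scale against the others. With 1 probe set per gene, the brightest, 1548 of 10867 genes lay above (14.2%) and 1090 below (10%), and these shares are the background for the gene lists.

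**Figure D1:**
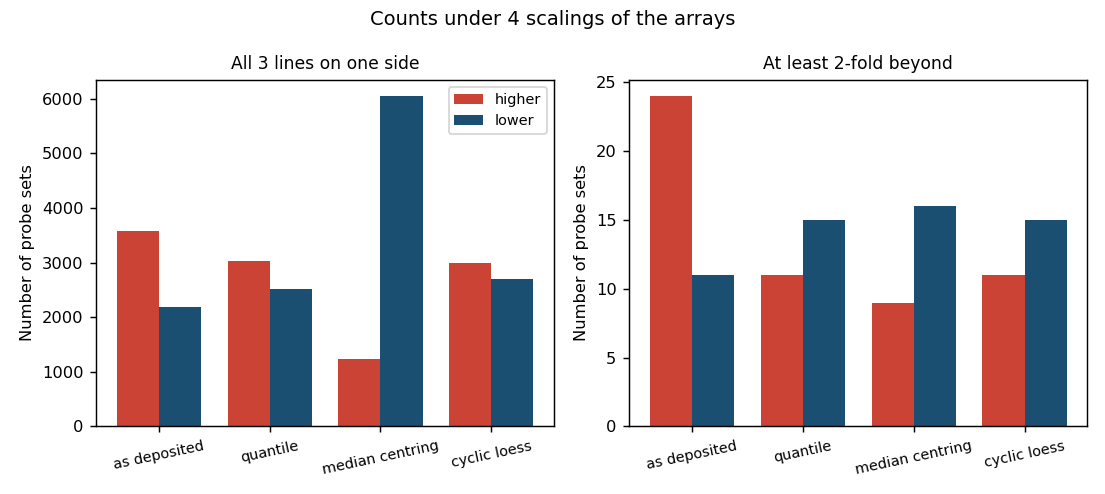
Number of probe sets for which the 3 lines with a knockdown vector lay above (red) or below (blue) both lines without one, on the left at any distance and on the right at least 2-fold beyond, under 4 scalings of the arrays. As deposited, 3571 lay above and 2182 below, and median centring turned this to 1236 and 6049.

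A rule of size was then applied. A probe set counted as 2-fold beyond where the nearest lines of the groups were at least 1 log2 unit apart. There were 24 higher (0.107%) and 11 lower (0.0488%) with a knockdown vector, and 11 and 15 after quantile normalization, 11 and 15 after cyclic loess, and 9 and 16 after median centring. Of these 35, 10 higher and 8 lower carried 1 gene symbol. Of the 10 higher, 7 had signals under 40.5 in both lines without a knockdown vector and 9 in at least 1 of them. Nothing shows such signals to exceed background, no detection calls were used, and the sizes of these differences are uncertain. In the sentences that follow, signals without a knockdown vector are those of the parental and then the empty vector line, and signals with one those of EGFP KD, KDM7 KD1 and KDM7 KD2.

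Among the higher genes, Cd1d1 encodes a surface molecule that presents lipid antigens to natural killer T cells. Its probe set 1449130_at had signals of 36.9 and 62.5 without and 206, 289 and 290.3 with a knockdown vector. All 3 lines with a knockdown vector stood above both others, with a log2 difference of 2.43 ± 0.29, and the second probe set, 1449131_s_at, read 80.8 and 118 without and 189, 295 and 240.5 with a knockdown vector (1.29). Smarca1, the ATPase of an ISWI chromatin remodelling complex, had 37.5 and 9.79 without and 125, 278 and 281 with a knockdown vector. Its difference was 3.48 ± 0.67, or 2.20 after an offset of 32 was added to every signal, and the KDM7 lines were above EGFP KD. Mfng, a fringe glycosyltransferase that modifies Notch receptors, had 13.9 and 20.1 without and 70.4, 69.8 and 84.04 with a knockdown vector, a difference of 2.15 ± 0.21 between dim and moderately dim signals.

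Socs3 encodes a feedback inhibitor of cytokine signalling through JAK and STAT proteins. Probe set 1456212_x_at had 14.3 and 29.2 without and 81.6, 69.8 and 67.4 with a knockdown vector (1.83 ± 0.32), and 1455899_x_at had 38.99 and 30.2 without and 53.5, 89.00 and 78.97 with a knockdown vector (1.07). Both put the 3 lines above the others. Niban1, a stress-responsive phosphoprotein, had 46.4 and 44.8 without and 157, 106 and 121 with a knockdown vector (1.47 ± 0.20) by 1454942_at and 77.6 and 42.03 without and 228, 139.9 and 242 with a knockdown vector (1.79) by 1422567_at, so its probe sets also lay the same way. Mmab encodes the enzyme that makes adenosylcobalamin from vitamin B12. Its probe set 1435097_at had 26.2 and 34.6 without and 76.8, 91.1 and 75.2 with a knockdown vector (1.42 ± 0.19), while in 1452467_at the groups overlapped, at 102 and 36.3 without and 91.2, 99.8 and 122 with a knockdown vector (0.77).

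The homeobox gene Nkx2-3 had 20.1 and 22.04 without and 59.5, 85.8 and 52.1 with a knockdown vector (1.61 ± 0.24). Its probe sets left out by the filter differed. One had 35.8 and 20.7 without and 29.6, 67.9 and 14.7 with a knockdown vector, so the groups overlapped and KDM7 KD2 was lowest. The other, dimmer still, had 2.84 and 4.83 without and 15.9, 5.997 and 13.3 with a knockdown vector, with no overlap. Nlrp14, a NOD-like receptor gene known from germ cells, had 31.2 and 5.15 without and 92.4, 132 and 67.6 with a knockdown vector (2.89 ± 0.78, and 1.59 without the empty vector line). These genes were near or below the filter signal in both lines without a knockdown vector. Gm5802, a predicted gene whose probes may read related copies, had 37.5 and 46.8 without and 182, 98.8 and 97.4 with a knockdown vector (1.53 ± 0.33), and EGFP KD was the highest.

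Among the lower genes, Zeb1 encodes a zinc finger repressor known for the epithelial to mesenchymal transition and for neural progenitors. Probe set 1418926_at had 1211 and 1250 without and 268, 507 and 572 with a knockdown vector, so that EGFP KD was lowest and the KDM7 lines lay between it and the others. The difference was -1.53 ± 0.35, and the dim probe sets 1443005_at and 1446127_at, with signals near the filter, had 0.24 and 0.11. P4htm, a membrane prolyl hydroxylase related to those that act on hypoxia-inducible factors, had 702 and 707 without and 311, 307 and 332 with a knockdown vector by 1459807_x_at (-1.15 ± 0.13). The lines of each group were nearly equal there, but the other probe set, 1428211_at, had 211 and 198 without and 193, 148 and 184 with a knockdown vector (-0.23).

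H3c11, a replication-dependent histone H3 gene with near-identical copies that its probes may also read, had 286 and 204 without and 47.5, 58.2 and 83.8 with a knockdown vector (-1.98 ± 0.29). Ifitm10, of the family of interferon-induced transmembrane proteins, had 222 and 200.4 without and 52.1, 59.7 and 90.4 with a knockdown vector (-1.69 ± 0.26). In both genes the order was the same, with EGFP KD lowest and KDM7 KD2 nearest to the lines without a knockdown vector. Bcan encodes brevican, a proteoglycan of the brain's extracellular matrix, and had 278 and 403 without and 41.3, 131 and 135 with a knockdown vector (-1.89 ± 0.58). Its EGFP KD signal was under that of either KDM7 line.

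Vip, which encodes the neuropeptide VIP, had 86.3 and 134 without and 33.6, 30.6 and 24.5 with a knockdown vector (-1.87 ± 0.25). Nes encodes nestin, the intermediate filament protein of neural progenitors. Probe set 1449022_at had 70.8 and 157 without and 20.1, 25.9 and 22.5 with a knockdown vector (-2.21 ± 0.36), and the brighter 1418289_at had 162 and 179 without and 110.3, 87.5 and 94.2 with a knockdown vector (-0.82), with no overlap between the groups in either. Cysrt1 had 119 and 105 without and 28.6, 28.6 and 41.05 with a knockdown vector (-1.80 ± 0.21). In Vip and in Nes 1449022_at all 3 knockdown-vector signals were under 40.5. Further probe sets of Bcan, Cysrt1, Mmab, Socs3 and Zeb1, left out by the filter, had overlapping groups, with all signals under 40.5. The probe set of Nes left out by the filter lay below in all 3 lines, also at signals under 40.5.

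**Figure D2:**
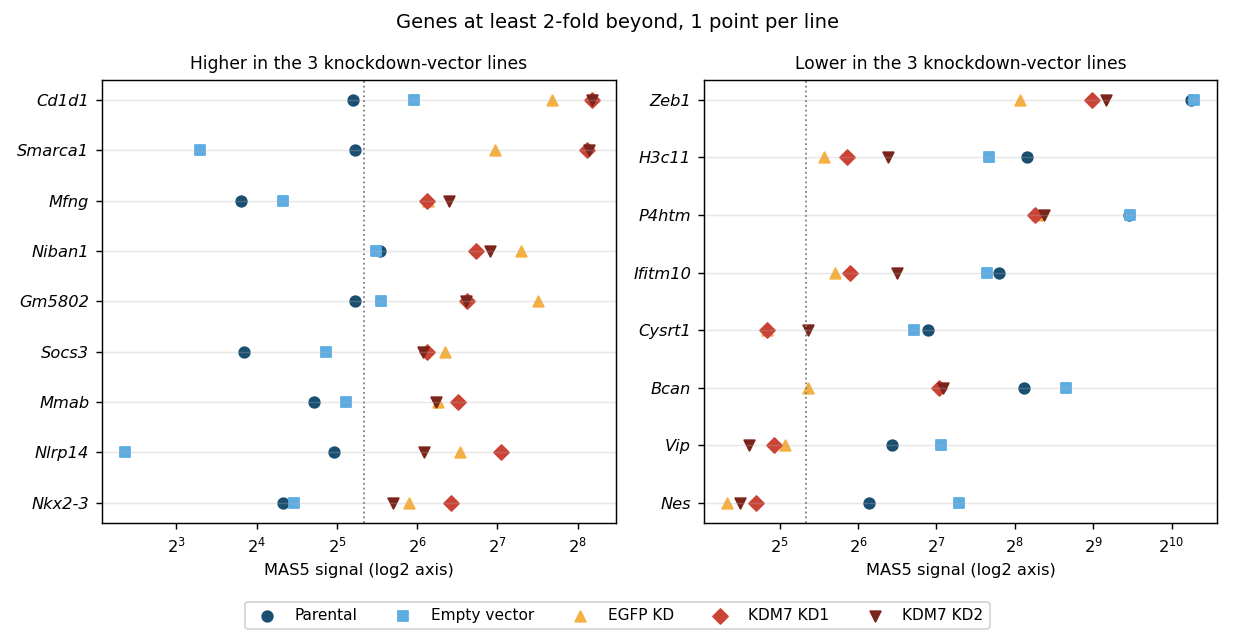
MAS5 signal (log2 axis) in each of the 5 lines, 1 point per line, for 9 of the 10 genes higher (left) and the 8 lower (right) by at least 2-fold in every line with a knockdown vector. The dotted line is the filter signal of 40.5, and most of the higher genes lie near or under it in the parental (circle) and empty vector (square) lines, while Zeb1 has 1211 and 1250 there and 268, 507 and 572 in the lines with a knockdown vector.

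The remaining 17 probe sets beyond 2-fold, 14 higher and 3 lower, had several symbols or none and were chosen after their values were seen. Probe set 1437588_at had 126 and 407 without and 1378, 1266 and 1151 with a knockdown vector (2.48 ± 0.49, and 1.63 without the parental line). Probe set 1422155_at had 106 and 98.8 without and 31.3, 29.2 and 33.1 with a knockdown vector (-1.72 ± 0.13), with narrow spread inside each group. Of the 14 higher, 10 had a signal under 40.5 in at least 1 line without a knockdown vector.

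The 2 kinds of knockdown vector were set side by side in a fit with 3 groups, in which EGFP KD is a single line assumed to vary like the others. EGFP KD and the KDM7 lines were each compared with the same parental and empty vector lines, so these values share their controls. limma called 0 probe sets for EGFP KD (smallest adjusted p 0.225, with 1579 at an unadjusted p under 0.05) and 0 for the KDM7 lines (0.694 and 1593). With trend and robust it called 3 for EGFP KD and 0 for the KDM7 lines. An earlier text on the whole series reported that trend and robust made calls in simulated data with nothing changed, so they served as an alternative only. The simulation made here ran the default fit alone. The rule of size fixes that both kinds lie on the same side for the 18 named genes. Over the 10 higher genes the log2 difference was 1.35 to 2.87 in EGFP KD and 1.23 to 3.87 in the KDM7 lines, and over the 8 lower genes -3.02 to -1.18 and -2.12 to -1.14.

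The KDM7 lines were also compared with EGFP KD directly, and limma called 0 probe sets (smallest adjusted p 0.183, with 1296 at an unadjusted p under 0.05, and 1 call with trend and robust). For 15 of the 18 named genes the unadjusted 95% interval of KDM7 minus EGFP held 0, and the adjusted p ranged from 0.787 to 0.998. That does not show that the vectors act alike, since the intervals were wide. For Smarca1 the difference was 1.16 (95% interval -1.14 to 3.47), and for Nlrp14 0.03 (95% interval -3.23 to 3.29). The narrowest among the named genes belonged to P4htm, at 0.04 (95% interval -0.44 to 0.52). The exceptions were Zeb1 at 1.01 (95% interval 0.50 to 1.51), Bcan at 1.69 (95% interval 0.91 to 2.47) and Gm5802 at -0.89 (95% interval -1.49 to -0.30), where EGFP KD lay farther from the lines without a knockdown vector.

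**Figure D3:**
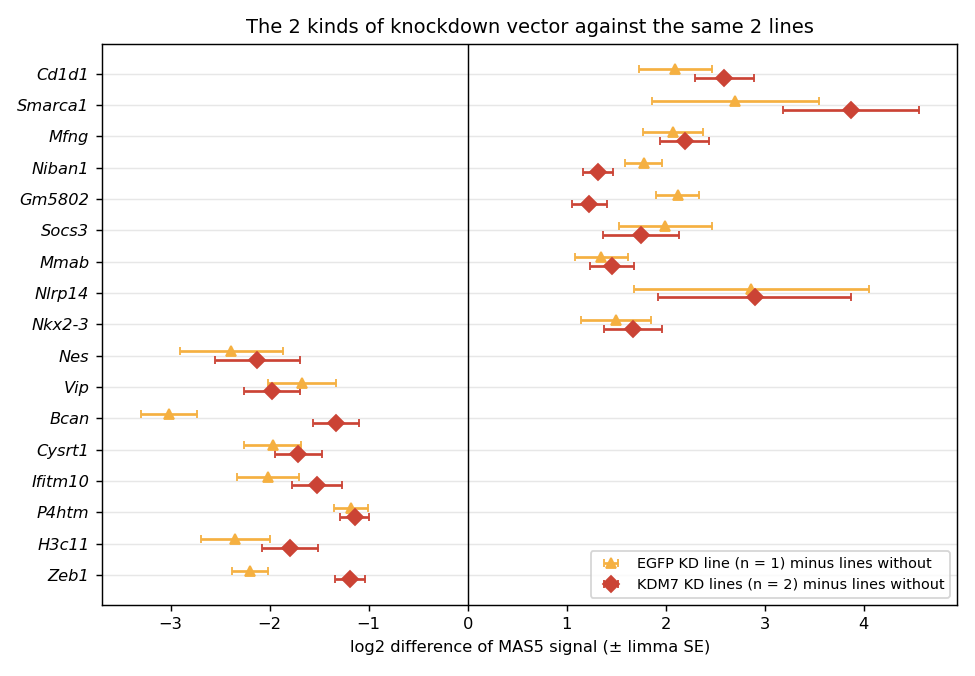
Log2 difference of MAS5 signal for EGFP KD (triangles, 1 line) and the KDM7 lines (diamonds, 2 lines) against the same parental and empty vector lines, with limma standard errors as bars, for 17 of the 18 named genes. The points of P4htm nearly coincide, and those of Bcan (-3.02 and -1.33) and Zeb1 (-2.20 and -1.19) lie apart.

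The genes that parted the kinds of vector most were chosen by a rule on the gap after the offset. Sohlh2, a transcription factor of germ cell development, had 1378 and 1244 without and 94.2, 1295 and 1365 with a knockdown vector, low in EGFP KD alone. Dennd6a, a regulator of Rab proteins, had 505 and 579.8 without and 48.9, 406 and 396 with a knockdown vector, below both other lines in all 3 but far lower in EGFP KD. Scd1 1415964_at had 11.4 and 16.4 without and 85.6, 29.5 and 1864 with a knockdown vector, above both other lines in all 3 and highest in KDM7 KD2. Its KDM7 KD1 signal was below that of EGFP KD, so Scd1 did not part the kinds of vector. Plekhg1 had 502 and 1615 without and 207, 1305 and 1813 with a knockdown vector. The KDM7 minus EGFP difference was 3.82 for Sohlh2 and 3.03 for Dennd6a, and neither was called in the main fit. These genes were chosen for this gap, and EGFP KD is a single line, so the sizes are descriptions only. Isl1, a transcription factor of sympathetic and motor neurons, had 1493 and 545 without and 1998, 316 and 466 with a knockdown vector, and the parental line was near EGFP KD. In Cavin2, a caveolar coat protein, the parental line was also near EGFP KD, with 4311 and 477 without and 3463, 613 and 546 with a knockdown vector. There the empty vector line was the lowest. Lix1 had 537 and 1143 without and 2451, 466 and 485 with a knockdown vector.

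The KDM7 family was measured in all lines, and the sample titles give KDM7 as the target without naming a member. Kdm7a, a demethylase of histone H3 lysines 9 and 27, had 659.5 and 648 without and 872, 231 and 143 with a knockdown vector by its brightest probe set, 1435867_at. EGFP KD was the highest of the 5 lines and the KDM7 lines the lowest, so the difference with a knockdown vector, -1.09 ± 0.76 and -0.54 without KDM7 KD2, came from the KDM7 lines. Probe set 1456150_at had the same order, at 487 and 611 without and 665, 130.3 and 136 with a knockdown vector. Phf8 had 920.4 and 603 without and 624, 565 and 584 with a knockdown vector (-0.34 ± 0.21, and -0.03 without the parental line), and Phf2 1434924_at had 655 and 617 without and 423, 496 and 622 with a knockdown vector (-0.33 ± 0.20, and -0.19 without EGFP KD), with overlapping groups in both. Fst, which encodes the activin-binding protein follistatin, likewise was low in the KDM7 lines alone, at 2646 and 1484 without and 1688, 492 and 444 with a knockdown vector.

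The list of RNA interference and microRNA machinery held 33 measured genes. With a knockdown vector 6 lay above both other lines (18.2% against 14.2% of all genes) and 3 below (9.09% against 10%), and the median log2 difference was 0.03 against 0.02 for all genes. None of the 33 reached an unadjusted p under 0.05 in limma. Fmr1, an RNA-binding protein that associates with Argonaute, had 2119 and 1299 without and 1033, 1220 and 1211 with a knockdown vector (-0.53 ± 0.24, and -0.17 without the parental line). Pan3, a subunit of a deadenylase recruited by microRNA complexes, had 697 and 701 without and 859.9, 873 and 745 with a knockdown vector (0.24 ± 0.14). Xpo5, which exports microRNA precursors from the nucleus, had 1183 and 1205 without and 1265, 1313 and 1350 with a knockdown vector (0.13 ± 0.12), and Drosha, which cuts their primary transcripts, had 3957 and 5102 without and 4914, 4592 and 5431 with a knockdown vector, with overlap between the groups.

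Interferon and RNA sensing genes were near the background as well. Of 29 measured, 4 lay above (13.8% against 14.2% of all genes) and 3 below (10.3% against 10%), with a median log2 difference of 0.04. Oasl1, an interferon-induced relative of the oligoadenylate synthetases, had 44.3 and 27.9 without and 81.3, 70.4 and 102 with a knockdown vector (1.25 ± 0.27), higher in all 3 lines but dim. Stat2, which carries the interferon signal to the nucleus, had 31.4 and 60.3 without and 97.5, 86.9 and 74.7 with a knockdown vector (0.98 ± 0.31, and 0.51 without the parental line). Eif2ak2, the kinase PKR that double-stranded RNA activates, had 215 and 345 without and 421, 367 and 348 with a knockdown vector (0.47 ± 0.24, and 0.13 without the parental line), with KDM7 KD2 just above the empty vector line. In the other direction Ifitm3, an interferon-induced membrane protein that restricts viruses, had 675 and 554 without and 261, 351 and 384 with a knockdown vector (-0.90 ± 0.22). Psmb8, an immunoproteasome subunit, had 625 and 928 without and 355, 343 and 514 with a knockdown vector (-0.94 ± 0.27). The list's balance turned with the line left out, at 4 above and 14 below without the parental line (all genes 28.5% and 25.3%) and 15 above and 6 below without the empty vector line (all genes 36.3% and 28.4%).

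Cytosolic ribosomal proteins were the list with the highest share on one side. The list had 79 entries, of which 44 had a probe set with 1 symbol and 43 were kept, so the counts cover only part of the family. Of the 43 measured genes 26 lay above both lines without a knockdown vector (60.5% against 14.2%) and 1 below, and the median log2 difference was 0.11. The differences of the 26 were small, 0.04 to 0.42, and 0 of the 43 reached an unadjusted p under 0.05. Rpl41 had 25818 and 25126 without and 29459, 28828 and 29026 with a knockdown vector (0.19 ± 0.12), Rpl35 had 29628 and 29307 without and 33585, 32633 and 33617 with a knockdown vector (0.18 ± 0.12), and Rpl8 had 21363 and 21913 without and 25365, 24007 and 25025 with a knockdown vector (0.20 ± 0.12). In each the 3 lines stood just above the others. Rpl12 had 696 and 845 without and 929, 999.9 and 1171 with a knockdown vector (0.42 ± 0.17), with KDM7 KD2 highest. Rps25 was the 1 gene below, at 11504 and 9053 without and 8949, 6904 and 7604 with a knockdown vector. Ribosomal protein genes have many near-identical processed copies, which their probes may also read.

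Brightness, scaling and 1 line moved with this count. Of the 43 genes 37 had a mean signal of at least 1873, and 25 of these lay above, against 15.7% of all genes that bright. After quantile normalization 11 of 43 lay above (25.6%) and 7 below (16.3%), where all genes had 12.8% and 10.9%. After median centring 0 lay above and 7 below (16.3%), where all genes had 3.90% and 28.9%. After cyclic loess 25 lay above (58.1%) and 1 below (2.33%), where all genes had 12.6% and 11.8%. The 43 genes' median deviation from each gene's mean was -0.04 in the parental, -0.08 in the empty vector, 0.03 in EGFP KD, 0.04 in KDM7 KD1 and 0.03 in KDM7 KD2, against -0.03, 0.01, 0.01, 0.01 and 0.03 for all genes. Relative to all genes the empty vector line was thus the low one. Without it 27 lay above and 6 below, where 36.3% of all genes lay above, and the median difference beyond all genes was 0.03 in place of 0.09. The array's own Gapdh control probe set (3′ end) was 18449 and 19480 without and 21662, 21460 and 21608 with a knockdown vector. The part of scaling or brightness in the count was not tested.

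**Figure D4:**
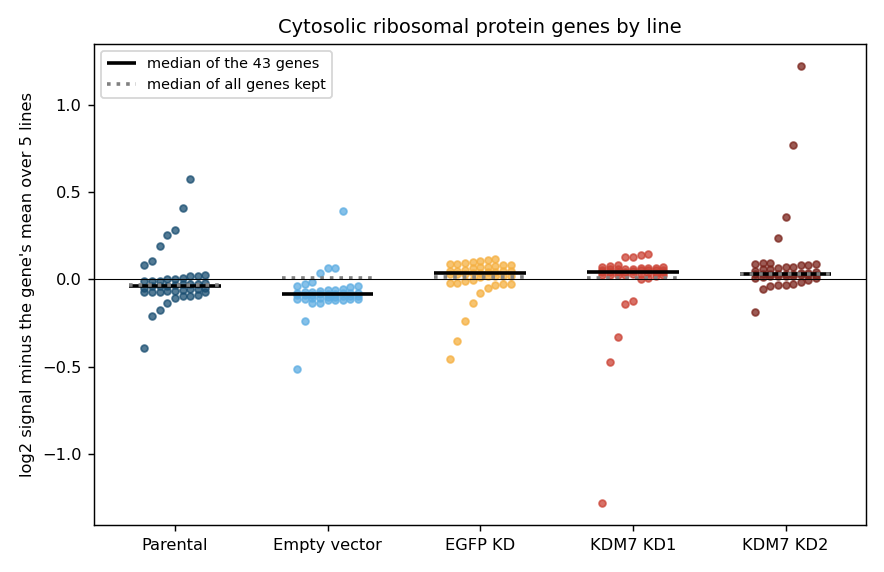
Log2 signal of 43 cytosolic ribosomal protein genes minus each gene's mean over the 5 lines, 1 point per gene and line. Black bars are medians of the 43 genes and grey dotted bars medians of all 10867 genes, and the gap between the bars is widest in the empty vector line, at -0.08 against 0.01.

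Ribosomal protein messages are known to begin with a run of pyrimidines that lets the cell adjust their translation together. The starts of 4 of the leading genes are shown because this run was counted in the list's promoters. They come from RefSeq on GRCm38.p6, 30 bases before and 20 after the start, with the longest run of C and T that has a base within 5 of the start in capitals.
Rpl41: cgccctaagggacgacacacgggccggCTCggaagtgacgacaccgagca
Rpl35: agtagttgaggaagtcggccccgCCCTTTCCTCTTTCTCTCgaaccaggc
Rpl12: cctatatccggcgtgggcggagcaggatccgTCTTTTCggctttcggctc
Rpl7a: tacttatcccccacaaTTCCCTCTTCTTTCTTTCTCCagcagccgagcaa
These lie at chr10:128549149-128549198 on the minus strand for Rpl41, chr2:39005112-39005161 on the minus strand for Rpl35, chr2:32961682-32961731 on the plus strand for Rpl12 and chr2:26910777-26910826 on the plus strand for Rpl7a. The runs are 3, 18, 7 and 21 bases long, so 2 of the 4 are long. In all, 38 of the 43 genes matched 45 promoter windows, and 18 of these (40%) had a run of at least 8, against 9.72% of all 32851 windows. The share was 12 of 29 windows for the genes above and 6 of 16 for the rest, and the runs were searched on the strand of the gene. In the list of fatty acid synthesis and desaturation 5 of 20 windows (25%) had such a run. This search was added after the values were seen, and a match is a description of the letters only.

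Genes of fatty acid synthesis and desaturation had 7 of 20 measured members above (35% against 14.2%) and 1 below, with a median log2 difference of 0.18. Fads1, a desaturase of polyunsaturated fatty acids, had 2158 and 2567 without and 2918, 3523 and 3197 with a knockdown vector (0.44 ± 0.16). Acaca, which makes malonyl-CoA, had 849.6 and 1101 without and 1205, 1214 and 1404 with a knockdown vector (0.39 ± 0.17), and Fasn, the fatty acid synthase, had 5341 and 6847 without and 7151, 7956 and 7686 with a knockdown vector (0.33 ± 0.16). In all 7 the parental line was the lowest, and without it 11 members lay above and 3 below, where all genes had 28.5% and 25.3%, the median was 0.09, and the differences of Acaca and Fasn were 0.21 and 0.15. Scd1, a stearoyl-CoA desaturase, had 25.6 and 29.7 without and 68.01, 58.3 and 542 with a knockdown vector by 1415965_at, which KDM7 KD2 led, and the difference of 2.23 ± 1.01 was 1.19 without that line. The abundant Scd2 had 18765 and 21442 without and 22058, 25882 and 24559 with a knockdown vector (0.27 ± 0.15, and 0.17 without the parental line), and Agpat2, of phosphatidic acid synthesis, had 483 and 630.1 without and 681, 669 and 797 with a knockdown vector. Acsl4, which activates arachidonic acid, was the member below, at 4277 and 4088 without and 3243, 3441 and 3480 with a knockdown vector (-0.30 ± 0.13).

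Cholesterol synthesis and uptake genes lay the same way, 6 of 27 above (22.2% against 14.2% of all genes) and 1 below (3.70% against 10%), with a median of 0.18. Tm7sf2, a sterol reductase, had 417 and 766 without and 1053, 1155 and 1281 with a knockdown vector (1.04 ± 0.28, and 0.60 without the parental line). Mvd, which makes isopentenyl diphosphate, had 1457 and 1429 without and 1660, 2120 and 1784 with a knockdown vector (0.35 ± 0.16). Hmgcs1, an early enzyme of the mevalonate pathway, had 11349 and 10589 without and 15020, 12717 and 12836 with a knockdown vector (0.30 ± 0.15), and Insig1, a sterol-sensing brake on the pathway, had 2259 and 2382 without and 2583, 3092 and 3049 with a knockdown vector (0.32 ± 0.15). The member below was Idi1, at 9214 and 10011 without and 8216, 8795 and 6765 with a knockdown vector. Without the parental line 9 lay above (33.3% against 28.5% of all genes) and 4 below, and the median was 0.05. Of 30 promoter windows of 22 of these genes, 70% held CCAAT on either strand, against 37.4% of all 300-base windows, and 1 of the 30 (3.33%) held the sterol element TCACNCCAC, against 1.24%. CACGTG was in 23.3% of the 30, against 7.15% of all windows. The unfolded protein and amino acid response list had CCAAT in 70.6% of its 34 windows, the fatty acid list in 50% of 20 and the ribosomal list in 31.1% of 45. CACGTG was in 8.82%, 5% and 11.1% of these.

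The unfolded protein and amino acid response list had 11 of 37 above (29.7% against 14.2% of all genes) and 3 below (8.11% against 10%), with a median of 0.11. Cebpb, a transcription factor of stress responses, had 2800 and 3021 without and 4055, 3671 and 3716 with a knockdown vector (0.39 ± 0.13), and its second probe set 1427844_a_at had 0.42. Chac1, which degrades glutathione, had 2072 and 2486 without and 2831, 2906 and 2785 with a knockdown vector (0.32 ± 0.14, and 0.19 without the parental line). Ppp1r15a, which helps restore translation after stress, had 871 and 1414 without and 1510, 1681 and 1543 with a knockdown vector (0.51 ± 0.23, and 0.16 without the parental line). Hspa5, the endoplasmic reticulum chaperone BiP, had 16138 and 18049 without and 19637, 20089 and 19477 with a knockdown vector (0.21 ± 0.13, and 0.13 without the parental line), and Atf4, the central transcription factor of the response, had 15936 and 17850 without and 20148, 19530 and 18783 with a knockdown vector (0.21 ± 0.13, and 0.13 without the parental line). The serine synthesis enzymes Psat1 and Psph had 0.24 ± 0.13 and 0.32 ± 0.15, with 0.20 for Psph without the empty vector line. In 10 of the 11 members above, the parental line was below the empty vector line, and without the parental line 11 members lay above and 11 below, where all genes had 28.5% and 25.3%, and the median was 0.03. The 3 members below were Dnajb9 (-0.54 ± 0.20), Hsp90b1 (-0.21 ± 0.13) and Manf (-0.14 ± 0.12), all chaperones or secreted stress factors of the endoplasmic reticulum.

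Glycolysis and hypoxia genes had 9 of 29 above (31% against 14.2% of all genes) and 1 below (3.45% against 10%), but the median was 0.04. Ldhb, a lactate dehydrogenase subunit, had 106 and 103 without and 165, 170.0 and 141 with a knockdown vector (0.60 ± 0.15). Bnip3, a mitophagy receptor that hypoxia induces, had 864 and 637 without and 956, 1058 and 1029 with a knockdown vector (0.45 ± 0.18, and 0.23 without the empty vector line). Aldoc, the brain form of aldolase, had 106 and 476 without and 525, 736 and 649 with a knockdown vector (1.49 ± 0.63), where the parental line alone was low, and 0.41 without it. Aldoa, the ubiquitous aldolase, had 17620 and 17079 without and 19405, 19568 and 19676 with a knockdown vector (0.17 ± 0.12), a direction that turned under median centring. Pfkfb4 and Tpi1 had 0.58 ± 0.23 and 0.32 ± 0.16, and 0.25 and 0.16 without the parental line. Hif1a, the oxygen-regulated transcription factor, was the 1 member below, at 7895 and 7034 without and 6470, 6660 and 6902 with a knockdown vector.

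**Figure D5:**
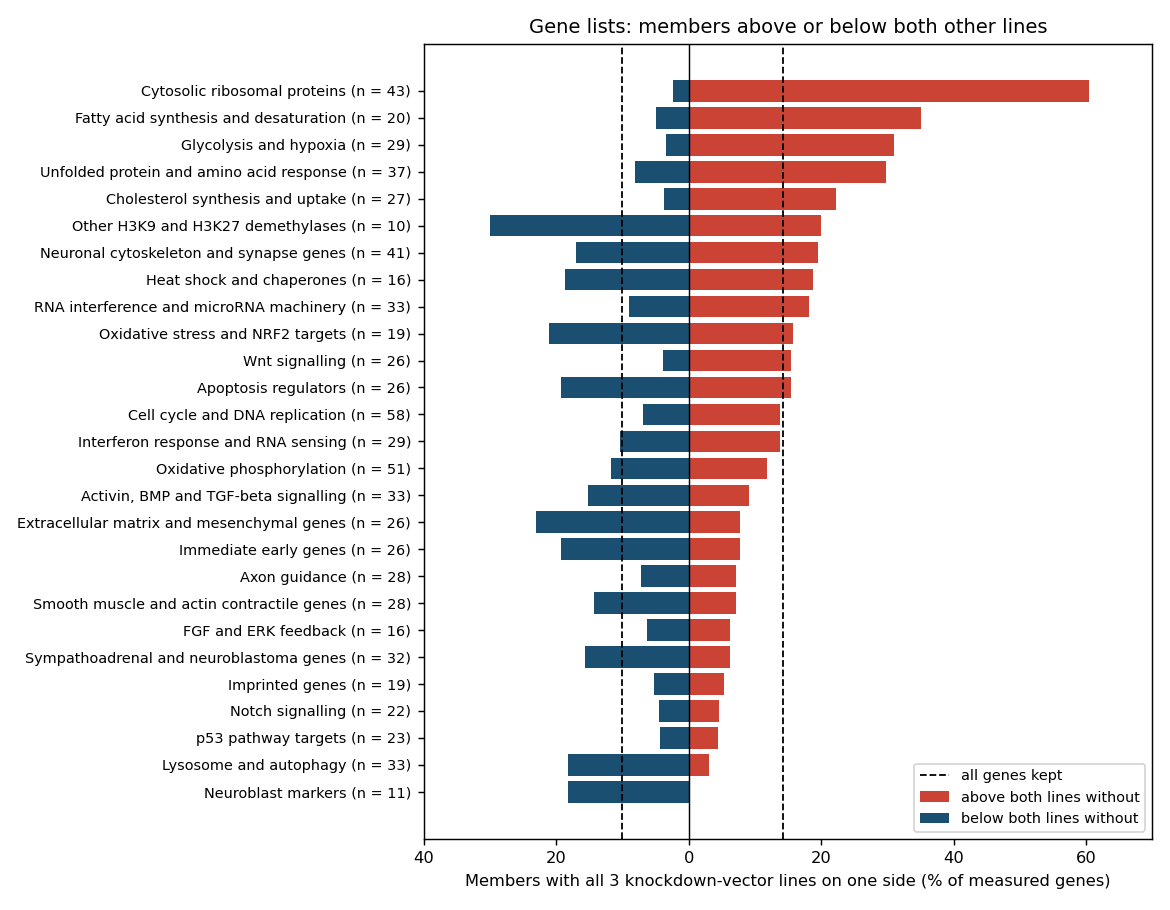
Share of measured genes of each list for which the 3 lines with a knockdown vector lay above (red, right) or below (blue, left) both lines without one, for the 27 lists with at least 10 measured genes. Dashed lines are the shares of all genes, 14.2% above and 10% below, and cytosolic ribosomal proteins reach 60.5% above.

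In 3 lists the share below was at least 2 times that of all genes. Extracellular matrix and mesenchymal genes had 6 of 26 below (23.1% against 10%) and 2 above, but the median log2 difference was 0.06. Without the parental line 13 lay below (50% against 25.3%) and 6 above, with a median of -0.24. Without the empty vector line 8 of 26 lay below and 10 above, where all genes had 28.4% and 36.3%. Itga1, an integrin that binds collagen, had 395 and 525 without and 229.7, 240.3 and 236 with a knockdown vector (-0.95 ± 0.17), with both lines without a knockdown vector well above the rest. Col5a1, a collagen chain, had 103 and 103 without and 12.4, 50.5 and 66.4 with a knockdown vector (-1.57 ± 0.73, and -0.83 without EGFP KD), lowest in EGFP KD. In the dimmer Col5a1 probe sets left out by the filter the groups overlapped. S100a6 and Timp2 were high in the parental line alone, at 3608 and 1089 without and 743, 779.6 and 923 with a knockdown vector and 1146 and 113 without and 92.1, 72.02 and 105 with a knockdown vector, and their differences of -1.29 ± 0.51 and -2.02 ± 0.95 were -0.42 and -0.35 without it. S100a4 had 1215 and 797 without and 299.5, 646 and 735 with a knockdown vector, and Itgb1, the common integrin beta chain, had -0.38 ± 0.17 (-0.19 without the parental line).

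The other H3K9 and H3K27 demethylases had 3 of 10 below and 2 above, with a median of -0.01. When each gene's probe sets were averaged, 2 lay below and 4 above. Kdm6a, a demethylase of H3 lysine 27, had 599.9 and 433 without and 366, 386 and 398 with a knockdown vector (-0.41 ± 0.18, and -0.17 without the parental line), while its paralog Kdm6b had 1443 and 1689 without and 2513, 2049 and 1872 with a knockdown vector (0.45 ± 0.18), above in all 3 lines. Kdm4c and Kdm1b had -0.47 ± 0.22 and -0.26 ± 0.16, which were -0.19 without the empty vector line for Kdm4c and -0.16 without EGFP KD for Kdm1b. Oxidative stress and NRF2 targets had 4 of 19 below (21.1%) and 3 above, with a median of 0.07 on the other side. When each gene's probe sets were averaged, 2 lay below and 5 above. Sod1, a superoxide dismutase, had 13572 and 13300 without and 11522, 11298 and 11914 with a knockdown vector (-0.21 ± 0.12), and Keap1, the inhibitor of NRF2, had 1170 and 1005 without and 927, 937 and 923 with a knockdown vector (-0.22 ± 0.14, and -0.11 without the parental line). Nfe2l2, which encodes NRF2, lay above, at 1031 and 1239 without and 1624, 1365 and 1575 with a knockdown vector (0.42 ± 0.16). Gclc and Gclm, the subunits of the enzyme that starts glutathione synthesis, had -0.17 ± 0.13 and -0.20 ± 0.14, the latter -0.13 without EGFP KD.

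The other 20 lists with at least 10 measured genes had 0% to 22.2% above and 3.7% to 19.2% below, with medians from -0.20 to 0.18. Neuronal genes went both ways. Syn2, a synaptic vesicle protein, had 2752 and 2070 without and 1107, 1020 and 1492 with a knockdown vector (-1.004 ± 0.23), and Cacna1b, the channel of N-type calcium currents, had 224 and 397 without and 637, 596 and 477 with a knockdown vector (0.92 ± 0.29, and 0.51 without the parental line), with 0.92 to 1.06 in its other kept probe sets. Chga, a secretory granule protein of sympathoadrenal cells, had 3203 and 2109 without and 1887, 1655 and 1511 with a knockdown vector (-0.63 ± 0.23, and -0.33 without the parental line), and Dbh, which makes noradrenaline, had -0.45 ± 0.18 (-0.22 without the parental line). Unc5c, a netrin receptor, had 1359 and 1438 without and 1055, 1182 and 1184 with a knockdown vector (-0.30 ± 0.13).

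Among signalling and growth genes, Fos, an immediate early transcription factor, had 620.1 and 733 without and 445, 319.7 and 318 with a knockdown vector (-0.92 ± 0.21), below in all 3 lines, and Nr4a1, another immediate early gene, had 412 and 541 without and 667, 721 and 640.5 with a knockdown vector (0.52 ± 0.17, and 0.32 without the parental line). Tcf7l2, a nuclear effector of Wnt signalling, had 215 and 378 without and 82.03, 122 and 121 with a knockdown vector (-1.42 ± 0.32), and the ligand Wnt11 was dim, at 32.7 and 32.4 without and 55.5, 45.3 and 43.6 with a knockdown vector. Id3, a target of bone morphogenetic proteins, had 4812 and 2941 without and 2006, 857 and 1235 with a knockdown vector (-1.55 ± 0.41), where the KDM7 lines were lowest. The coreceptor Tgfbr3 had 10.9 and 60.4 without and 144, 130.1 and 90.9 with a knockdown vector (2.22 ± 0.73, and 0.98 without the parental line). Adam10, the protease that cleaves Notch, had 2966 and 2410 without and 2105, 1991 and 1856 with a knockdown vector (-0.43 ± 0.16, and -0.28 without the parental line). Spred2, an inhibitor of ERK signalling, had 0.23 ± 0.15 (0.10 without the parental line).

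Cell cycle genes had 8 of 58 above (13.8% against 14.2% of all genes) and 4 below (6.90% against 10%), with a median of 0.01. Cdc25b, a phosphatase that drives entry into mitosis, had 846 and 813 without and 948, 998 and 1089 with a knockdown vector (0.28 ± 0.14), and the spindle factor Tpx2 had 0.20 ± 0.13. Apoptosis regulators had 4 of 26 above (15.4%) and 5 below (19.2%), against the same shares of all genes. Casp8, the initiator caspase of death receptors, had 52.8 and 58.4 without and 89.1, 105 and 201 with a knockdown vector (1.15 ± 0.37), and Naip6, an inhibitor of apoptosis family member, had 0.85 ± 0.26 (0.51 without the parental line). Of p53 targets Gadd45a, a stress-induced growth arrest gene, had 576 and 529 without and 787, 714 and 660.1 with a knockdown vector (0.38 ± 0.15). Lamp2, a lysosomal membrane protein, had 2329 and 1780 without and 1273, 1338 and 1265 with a knockdown vector (-0.66 ± 0.16). Lysosome and autophagy genes had 1 of 33 above (3.03% against 14.2%) and 6 below (18.2% against 10%). Cryab, a small heat shock protein, had 812 and 756 without and 448, 409.6 and 651 with a knockdown vector (-0.67 ± 0.23), and Hsf2, a heat shock transcription factor, had -0.40 ± 0.15. Oxidative phosphorylation genes had 6 of 51 on each side (11.8%, against 14.2% of all genes above and 10% below). Uqcrfs1, the iron-sulfur protein of complex III, had -0.24 ± 0.16 (-0.13 without EGFP KD). The homeobox genes Hoxc8 and Hoxc10 had 0.59 ± 0.16 and -0.37 ± 0.15, and the imprinted genes Peg10 and Peg3 had 0.48 ± 0.21 and -0.35 ± 0.16, with 0.25 for Peg10 without the parental line.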

How the data were processed

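RNA of 5 Neuro2A lines was hybridised to 1 Affymetrix array each. The authors deposited 1 signal intensity per probe set on a linear scale, made with MAS5 per the submitters' processing notes. For the MAS5 version: not given in the sources used here. Of 45101 probe sets 64 controls were dropped, the rest was put on a log2 scale, and those at or above the median mean log2 signal were tested with limma 3.58.1 in R 4.3.3 (lmFit, eBayes without trend or robust, Benjamini-Hochberg at 0.05). The fit of 2 groups had 3 residual degrees of freedom and that of 3 groups 2. Symbols came from the platform annotation, 34945 probe sets having 1, 932 several and 9160 none listed. For the 33 gene lists, each gene was read by its brightest kept probe set.

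Named genes are Kdm7a, Phf2, Phf8 and Fst. To these are added the genes called in the main comparison or, where fewer than 12 were, those 2-fold beyond in every line, ranked by the gap after an offset of 32. From each list come the 2 members without overlap and with the widest gap, or else the 1 with the largest difference, and up to 6 from lists whose share on one side was at least 2 times that of all genes. The 4 with the widest gap each way come from KDM7 against EGFP, where 1 KDM7 line above EGFP KD could meet the rule, as in Scd1. Xpo5, Drosha, Stat2, Eif2ak2, Psmb8, Rps25, Hmgcs1, Insig1, Idi1, Atf4, Dnajb9, Hsp90b1, Manf and Hif1a were chosen after their values were seen. One gene that the rule names is not reported here. Members and lists were chosen with earlier results of these data known. Alternatives were median centring, quantile or cyclic loess normalization, no filter or the 70th percentile, the offset, trend, trend and robust, a threshold of 0.10, 1 probe set or the mean per gene, and leaving out each line. Classes of brightness, further probe sets and leaving lines out for the genes so chosen were added after the values were seen. The default fit of 2 groups was tested on simulated data.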

Additional observations from a re-analysis of the deposited data

How the results depend on the processing

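The count of probe sets called with a knockdown vector was 0 to 1 over the fits that left out a line. With trend and robust, EGFP KD had 3 calls and KDM7 against EGFP 1. Probe sets 2-fold beyond and higher, 24 as reported, numbered 11 under quantile normalization, 9 under median centring, 11 under cyclic loess, 763 with no brightness filter, 1 with a filter at the 70th percentile, 4 with an offset of 32, and 42 to 513 with a line left out. Those lower, 11 as reported, numbered 338 with no filter, 2 at the 70th percentile, 5 with the offset and 19 to 186 with a line left out. Leaving a line out raises these counts by construction, since fewer lines must meet the rule. The totals also differ, with 22519 probe sets tested as reported, 45037 with no filter and 13511 at the 70th percentile. Probe sets with no overlap and higher, 3571 of 22519, numbered 1236 under median centring and 4881 to 8414 with a line left out. They were 6710 of 45037 with no filter and 1956 of 13511 at the 70th percentile. Those lower, 2182 of 22519, numbered 6049 under median centring, 3800 of 45037 with no filter and 3058 to 6017 with a line left out. Ribosomal genes above, 26 of 43 as reported, were 11 under quantile normalization, where 12.8% of all genes lay above. They were 0 under median centring, where 3.90% of all genes did, and 27 to 34 with a line left out. Of 133 named results, each computed under 13 to 15 other settings, 122 kept their direction in all of theirs. Under median centring Rpl35 (-0.0036), Atp5d (-0.0045), Lix1 (-0.11), Rpl7a (-0.024), Rpl27 (-0.031) and Aldoa (-0.0065) turned. Phf2 1421069_at turned to -0.17 after median centring, cyclic loess or quantile normalization and to -0.024 with the offset. With a line left out it ranged from -0.65 to 0.68, Cavin2 from -2.04 to 1.14, Lix1 from -0.72 to 0.61, Isl1 from -1.23 to 0.29, Plekhg1 from -1.04 to 0.77 and Sohlh2 from -1.91 to 0.022. The cause was not tested. In the main comparison 0 of 1913 pairs of a named result and a setting passed the threshold, and the lowest adjusted p in limma among them was 0.0968. Signal over background limits the dim genes. No paired analysis was possible because the labels give the lines no shared replicate numbers.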

Other observations

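Single lines held the widest separations, and these values were singled out after they were seen. H1f2, a linker histone, had signals of 3922 and 4069 without and 694, 2574 and 2224 with a knockdown vector, lowest in EGFP KD. EGFP KD minus the lines without a knockdown vector was -2.53 on the log2 scale, against -3.80 for Sohlh2 and -3.47 for Dennd6a. limma called these probe sets for EGFP KD, a single line, only with trend and robust. Those options were reported, in the earlier text on the whole series, to make calls in simulated data with nothing changed. They were not simulated here. Rilpl1 1447852_x_at had 347 and 1.25 without and 447, 387 and 443 with a knockdown vector, so that the empty vector array alone was low, and limma called it once the parental line was left out (adjusted p = 0.0144).

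The parental line was the high one for smooth muscle and actin contractile genes, whose median deviation from each gene's mean was 0.63 there and -0.14 to -0.04 in the other 4 lines. Acta2, smooth muscle actin, had 2733 and 105 without and 73.3, 89.6 and 39.3 with a knockdown vector (-3.07 ± 1.36, and -0.71 without the parental line). Csrp1, a LIM protein of actin bundles, had 3464 and 1891 without and 1222, 1321 and 1475 with a knockdown vector (-0.94 ± 0.28, and -0.50 without the parental line). The epithelial keratin Krt8 had 36.4 and 74.9 without and 174, 57.6 and 283 with a knockdown vector, with KDM7 KD1 below the empty vector line, and Pmp22, a myelin gene that Schwann cells use, had 5275 and 4869 without and 2650, 3450 and 4524 with a knockdown vector.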
